A study of Mus musculus with 115 samples.

Results

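The respiratory chain genes are the mRNAs for the subunits of complexes I to V of oxidative phosphorylation. They were taken from the count table by symbol, and 107 of its 22870 genes matched. Of these, 94 are nuclear genes (symbols beginning with Nduf, Uqcr or Atp5, together with Sdha to Sdhd, Cyc1 and the Cox4 to Cox8 genes) and 13 are genes of mitochondrial DNA (symbols beginning with mt-Nd, mt-Co, mt-Atp or mt-Cyt). The symbols also bring in 8 assembly factors of complex I (Ndufaf), the supercomplex factor Cox7a2l and the coupling factor Atp5s. No value in the data entered the symbol rule, which was set with earlier results of these data known.

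Each library was the cytosol of 1 dentate gyrus granule cell drawn into a patch pipette. All mice carried Rbp4-Cre, all received a retrograde virus encoding EGFP in the right ventral hippocampus, and all received a virus with Cre-dependent mCherry in the left hippocampus. That left-sided injection also held saline or kainic acid (KA), which activates glutamate receptors and provokes seizures. After 2 weeks, granule cells of the left side were sampled whether or not they showed mCherry. EGFP marks a cell whose axon reached the opposite hippocampus (EGFP+), and its absence marks the other cells (EGFP-). The groups were 27 KA EGFP+, 36 KA EGFP-, 5 saline EGFP+ and 27 saline EGFP- cells kept by the authors' quality control, out of 29, 38, 7 and 41 labelled cells. Titles run in a first series, numbered 1 to 48, with KA cells alone, and a second series of higher numbers, with all saline cells, 3 KA EGFP+ and 15 KA EGFP- cells. The design text gives 9, 3, 3 and 3 mice for the groups in that order, but no label ties a cell to its mouse. Each group is therefore treated as 1 sample, no difference has a replicate check, no test was made from cells, and an SD is the spread over cells. Of the kept cells, 27, 30, 3 and 22 also carry the label of having passed quality control, so labels and kept columns are not in full accord. Most cells labelled as failed carry the title 1 below that of a cell missing from the kept table, the pattern of a shift by 1 title. If the treatment and EGFP labels were shifted as well, some cells would stand in the group of their neighbour, which was not tested. The median differences are therefore also given for cells labelled as passed and for cells whose neighbouring titles carry the same group, of which there are none among the saline EGFP+ cells.

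In oxidative phosphorylation, complexes I and II feed electrons from NADH and succinate to ubiquinone, complex III passes them on through cytochrome c to complex IV, which reduces oxygen, and complex V makes ATP from the resulting proton gradient. Complex II is built from nuclear genes alone, whereas complexes I, III, IV and V join nuclear subunits to products of mitochondrial DNA. Neurons rely on this pathway for most of the ATP that ion pumping and synaptic transmission consume.

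Depth in the kept cells was 1277978 to 56183007 counts, with 1469 to 9945 genes counted. The median number of genes was 4289 in KA EGFP+ cells of the second series against 6383 in those of the first, and 3707 in KA EGFP- cells of the second series against 6974 in those of the first. The highest correlation of log2 levels between any pair of cells was 0.798. Of the granule cell markers, Prox1 was counted in 76 and Calb1 in 78 of 95 cells, but Dsp in 13 and Tdo2 in 6. Markers of microglia, the immune cells of the brain, took 5279.7 to 49986 CPM (counts scaled to 1000000 per cell, 16 genes summed) in the 5 saline EGFP+ cells. Their medians in the other groups were 183 CPM in KA EGFP+, 133 CPM in KA EGFP- and 269.1 CPM in saline EGFP- cells, with single cells up to 26101, 55784 and 53766 CPM.

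Mitochondrial mRNAs in these files have close copies in the nuclear genome, so the sequences are shown before the levels. Each pair below gives the opening bases of a mitochondrial gene on chromosome M (positions 1 to 60 of the transcript) and of its copy, a pseudogene annotated on the minus strand of chromosome 1, from the GENCODE transcripts of build GRCm38, 5′ to 3′. The copy of mt-Atp6 is Gm10925 (chr1:24613974-24614651) and that of mt-Co3 is Gm28437 (chr1:24613189-24613971), both identical over their whole length of 678 and 783 bases.
mt-Atp6: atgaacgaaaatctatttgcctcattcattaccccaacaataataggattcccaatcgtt
Gm10925: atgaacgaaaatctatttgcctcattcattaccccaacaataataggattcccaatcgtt
mt-Co3: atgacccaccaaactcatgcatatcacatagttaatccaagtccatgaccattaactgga
Gm28437: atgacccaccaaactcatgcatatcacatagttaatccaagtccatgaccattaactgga

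The copies Gm28661 of mt-Co2 and Gm10222 of mt-Nd4l were also 100% identical over 681 and 294 bases. The copy Gm28438 of mt-Nd3 differed at 1 of 345 bases, T3C, counted from 1 at the first base of mt-Nd3, with the mitochondrial base given first. Positions 1 to 33 of that pair are printed with the differing base in capitals.
mt-Nd3: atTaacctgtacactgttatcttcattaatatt
Gm28438: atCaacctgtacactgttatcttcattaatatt

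The 13 mitochondrial mRNAs formed a well-counted set of 7 genes and a set of 6 genes with few counts. Over all 95 cells the median level was 1413 CPM for mt-Cytb (cytochrome b of complex III, chrM:14145-15288), 1211 CPM for mt-Co1 (catalytic subunit of complex IV, chrM:5328-6872) and 880 CPM for mt-Nd1 (a membrane subunit of complex I, chrM:2751-3707). It was 357 CPM for mt-Nd4, 350 CPM for mt-Nd5, 249.1 CPM for mt-Nd2 and 76.0 CPM for mt-Nd6, which are complex I subunits as well. In contrast, the median was 2.22 CPM for mt-Co3 and 1.07 CPM for mt-Co2 (complex IV), 1.63 CPM for mt-Atp6 and 0.652 CPM for mt-Atp8 (complex V), 1.56 CPM for mt-Nd3 and 0 CPM for mt-Nd4l (complex I). Per kilobase of transcript, the levels of the 6 low genes were 0 to 4.48 CPM per kb and those of the 7 others 146 to 1235 CPM per kb.

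Of the 6 low genes, mt-Atp6, mt-Co2, mt-Co3, mt-Nd3 and mt-Nd4l had 98.0 to 100% of their 50-base stretches in common with another annotated transcript, and those pseudogene copies are not listed in the count table. The other 7 ranged from 0% (mt-Cytb, mt-Nd1 and mt-Nd6) to 51.1% (mt-Co1) and 62.2% (mt-Nd4). The low gene mt-Atp8 shared 0%, and its transcript overlaps that of mt-Atp6 on the same strand, as that of mt-Nd4l overlaps mt-Nd4. Whether shared or overlapping sequence lowered these counts was not tested. The low genes are uncertain for that reason, and the median difference of each comparison is given over all 13 genes and over the 7 well-counted genes, apart from the alternative cell selections, which are given over the 13.

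**Figure D1:**
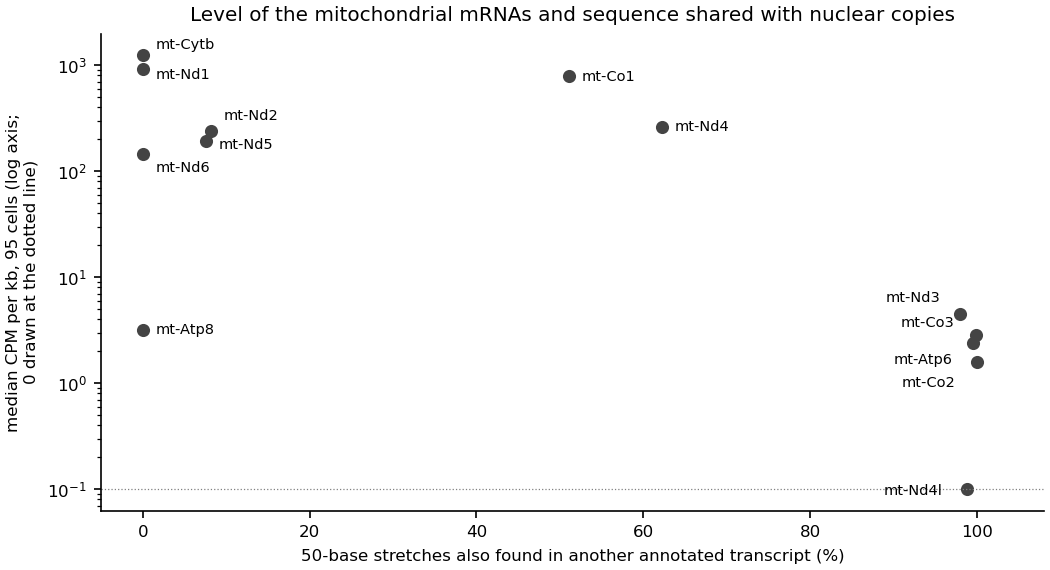
Median level of each mitochondrial mRNA over 95 cells (y, CPM per kb, log axis, with 0 drawn at the dotted line) against the percentage of its 50-base stretches that occur in another annotated transcript (x). The 7 genes above 100 CPM per kb share at most 62.2%, and 5 of the 6 genes below 5 CPM per kb share 98.0% or more, mt-Atp8 being the exception.

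Summed over the nuclear genes, the respiratory chain took a similar share of each group's counts. The summed level of the 94 nuclear genes had a median of 19421 CPM in KA EGFP+ cells (11366 to 36321.5), 19689 CPM in KA EGFP- cells (3634 to 48693) and 16668 CPM in saline EGFP- cells (9487 to 32321). The 5 saline EGFP+ cells had 24286, 15902, 25816, 6964 and 21065 CPM. All groups overlapped, and saline EGFP+ replicate 6, with 6964 CPM, lay below every saline EGFP- cell.

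The 13 mitochondrial genes took less and varied more. Their summed level had a median of 6209.85 CPM in KA EGFP+ cells (1434 to 55940.5), 4950.3 CPM in KA EGFP- cells (127 to 14639) and 3524 CPM in saline EGFP- cells (334 to 20719). The 5 saline EGFP+ cells had 4747, 2824, 7123, 6848 and 13736 CPM. The groups overlapped throughout. The 3 highest cells were KA EGFP+ replicates 9, 15 and 16, with 5.59%, 2.99% and 2.53% of their counts, and they had 1635, 2438 and 2470 genes counted. The lowest was KA EGFP- replicate 27, with 0.0127%.

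**Figure D2:**
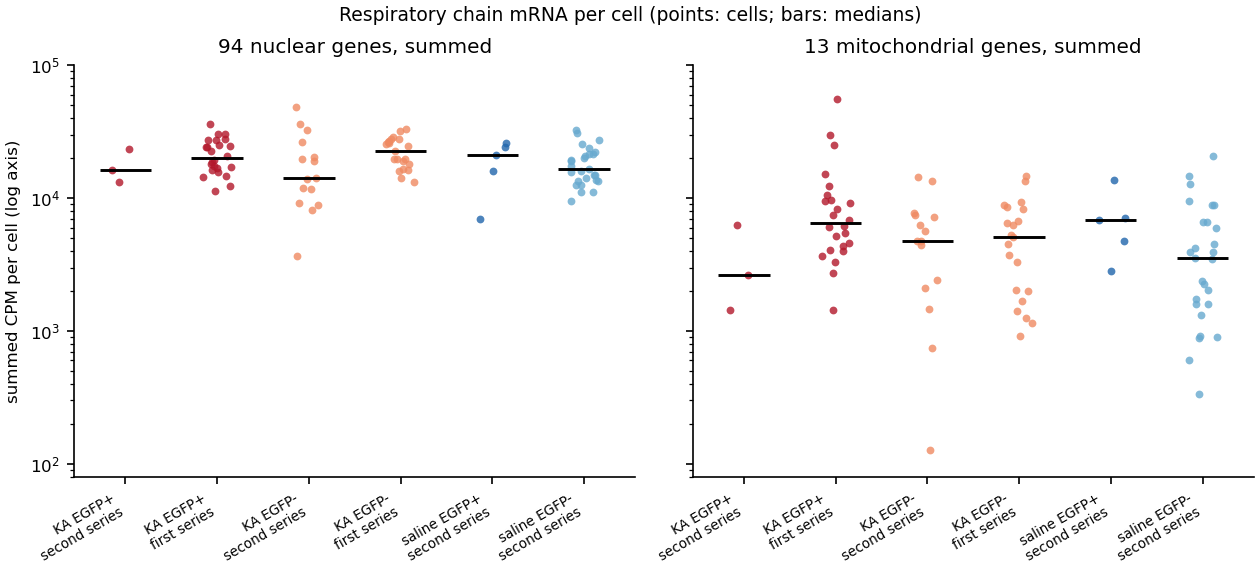
Summed level per cell (y, CPM, log axis) of the 94 nuclear genes (left) and the 13 mitochondrial genes (right), by group and title series (x); points are cells and bars medians. Nuclear sums lie between 3634 and 48693 CPM, and mitochondrial sums spread further, from 127 to 55940.5 CPM.

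Across the 95 cells the summed mitochondrial and nuclear levels were loosely related (Pearson r = 0.35, Spearman rho = 0.35, on log2 values that share each cell's library). The summed mitochondrial mRNAs followed the mitochondrial ribosomal RNAs more closely (r = 0.81, rho = 0.79), whose level also comes from mitochondrial transcription. The number of nuclear members counted followed the number of all genes counted after thinning each cell to 1000000 counts (r = 0.82, rho = 0.89). The nuclear sum hardly did (r = 0.18). Cells with few genes counted thus also had few members counted, which touches every difference of log2 levels below.

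The nuclear genes with the highest levels per kilobase were subunits of complexes IV and V, although complexes II and III had higher medians. The median over genes was 125 CPM per kb for complex III, 104 for complex II, 93.0 for complex V and 86.1 for complex IV. Of the 19 complex IV genes, 8 had a level of 0 in the median cell. Cox8a (a small complex IV subunit) had a median of 722 CPM per kb, Atp5b (the catalytic beta subunit of complex V) 432, Atp5a1 (its alpha subunit) 404, Cox4i1 (the regulatory subunit of complex IV) 401 and Cox6b1 363 CPM per kb. The mitochondrial mRNAs mt-Cytb, at 1235 CPM per kb, mt-Nd1, at 919, and mt-Co1, at 784, lay above all of these. Cox8a, Atp5b, Atp5a1 and Cox4i1 were counted in 89, 91, 95 and 90 of 95 cells.

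Complex III had the narrowest range of the 5 complexes. The 9 complex III genes ranged from 98.7 CPM per kb (Uqcrc2, a core subunit) to 235.1 (Uqcr11). The 36 complex I subunits ranged from 5.56 CPM per kb (Ndufab1, the mitochondrial acyl carrier protein) to 248.6 (Ndufa1), with a median of 74.7. The length used joins all annotated exons of a gene and can exceed that of the mRNA present, so these orders are uncertain. For Ndufab1 it was 6883 bases. Without division by length its median was 38.3 CPM, above that of Ndufb4 (15.5 CPM). The 4 complex II genes ranged from 14.96 CPM per kb (Sdhc, a membrane anchor) to 181 (Sdhd, the other anchor), with Sdha, the flavoprotein, at 99.0 and Sdhb, the iron-sulfur subunit, at 110. The 16 complex V genes ranged from 0.148 CPM per kb (Atp5g2) to 432 (Atp5b). The 8 complex I assembly factors were the lowest group, with a median of 0 and a highest level of 4.22 CPM per kb (Ndufaf4).

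Where a subunit has several isoforms, the granule cells carried the widely expressed one. Cox4i1 was counted after thinning in 26 of 27 KA EGFP+, 34 of 36 KA EGFP-, 4 of 5 saline EGFP+ and 26 of 27 saline EGFP- cells. Its alternative Cox4i2, known from lung, had no count in any of the 95 cells, which allows a share of up to 3.16% of cells with a count (3 cells of 95). That limit covers the sampling of cells only, taken as independent, and does not bear on cells that hold the mRNA uncounted. Cox8c, a testis isoform in other work, was also at 0, and Cox8b, an isoform of heart and skeletal muscle, was counted in 2 cells. Cox6a2 and Cox7a1, the muscle forms, were counted in 10 and 7 cells, against 92 for Cox6a1 and 88 for Cox7a2. Cox6b2 and Cox7b2 were each counted in 6 cells, against 88 for Cox6b1 and 87 for Cox7b, and Ndufa4l2 in 5, against 89 for Ndufa4.

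The genes Atp5g1, Atp5g2 and Atp5g3 encode the same c subunit of the complex V rotor with different import sequences. Over all cells Atp5g3 had a median of 157, Atp5g1 of 28.5 and Atp5g2 of 0.148 CPM per kb. Without division by length the medians were 342, 140 and 0.248 CPM. Atp5g2 was counted after thinning in 20 of 27 KA EGFP+ cells (74.1%, exact Clopper-Pearson 95% interval 53.7 to 88.9%), 13 of 36 KA EGFP- cells (36.1%, 20.8 to 53.8%), 2 of 5 saline EGFP+ cells (40%, 5.27 to 85.3%) and 9 of 27 saline EGFP- cells (33.3%, 16.5 to 54.0%). By title series it was counted in 0 of 3 KA EGFP+ and 2 of 15 KA EGFP- cells of the second and 20 of 24 and 11 of 21 cells of the first. Its difference between KA EGFP+ and EGFP- cells was 1.82 with all titles, 0.45 among titles 20 to 48 and -0.25 in the second series. The intervals treat cells as independent, leave out differences between mice and are no test of the groups. Of its 50-base stretches 38.3% occur in other transcripts, above all in the pseudogene Gm10175, which is in the count table, so its level is uncertain.

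**Figure D3:**
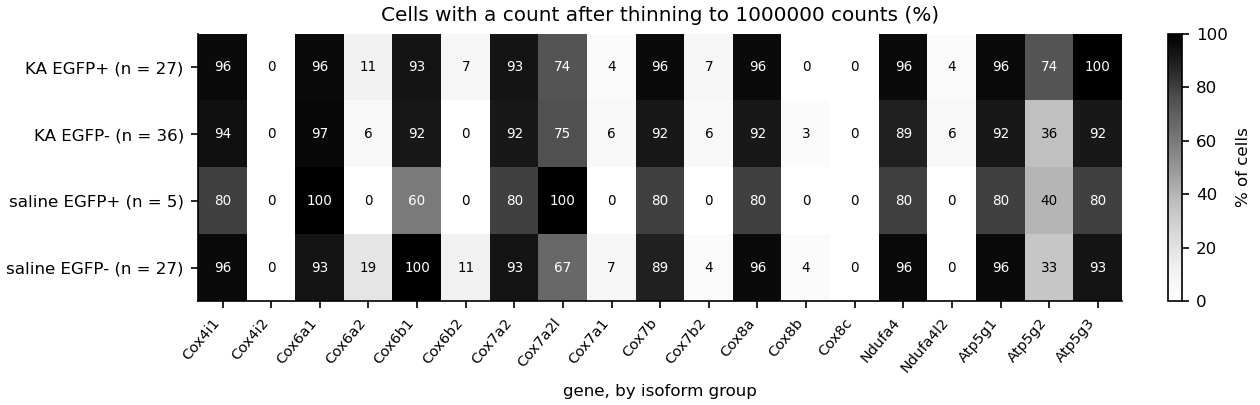
Percentage of cells with a count after thinning to 1000000 counts (printed in each square and shaded from 0 to 100) for genes of the isoform groups (x) in the 4 groups (y, with the number of cells). Cox4i2 and Cox8c are at 0 in every group, and Cox4i1 is at 80% or more in each.

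The nuclear genes were screened for motifs of factors that other work ties to respiratory genes, in the RefSeq promoter table (build GRCm38.p6, 250 bases before to 50 after the start), where 76 of 94 matched. The background was 17492 promoters of protein-coding genes, 1 per gene. The NRF1 motif GCATGCGC, on either strand, was in 15.8% of the members' promoters and 3.61% of that background. The GABP motif CCGGAAG was in 22.4% and 11.9%, the YY1 motif AAGATGGC in 13.2% and 3.22%, and the Sp1 motif GGGCGG in 46.1% and 46.3%. No motif is contained in another, the reverse complements searched were GCGCATGC, CTTCCGG, GCCATCTT and CCGCCC, and a match marks letters only. At least 1 of NRF1, GABP and YY1 was present in 43.4% of the members and 17.3% of the background.

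The promoters of 4 genes are printed as examples for genes named in the KA comparison below, on the strand of the gene, with every match to any of the 4 motifs or its reverse complement in capitals. They are Ndufb7 (chr8:83566508-83566807, plus strand), Ndufb6 (chr4:40279372-40279671, minus strand), Ndufaf4 (chr4:24897833-24898132, plus strand) and Ndufa8 (chr2:36049289-36049588, minus strand). The first 3 genes were higher after KA and Ndufa8 was lower.
Ndufb7: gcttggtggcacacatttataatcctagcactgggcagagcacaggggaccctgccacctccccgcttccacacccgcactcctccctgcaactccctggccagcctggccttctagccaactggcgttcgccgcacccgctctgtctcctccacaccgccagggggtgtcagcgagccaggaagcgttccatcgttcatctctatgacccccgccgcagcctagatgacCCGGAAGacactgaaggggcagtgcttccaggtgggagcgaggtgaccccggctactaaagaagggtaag
Ndufb6: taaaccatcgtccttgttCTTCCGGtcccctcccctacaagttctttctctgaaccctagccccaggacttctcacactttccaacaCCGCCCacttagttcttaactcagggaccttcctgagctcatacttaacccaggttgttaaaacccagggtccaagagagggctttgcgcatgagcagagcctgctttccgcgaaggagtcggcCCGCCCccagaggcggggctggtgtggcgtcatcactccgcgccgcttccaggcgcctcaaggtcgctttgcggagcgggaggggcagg
Ndufaf4: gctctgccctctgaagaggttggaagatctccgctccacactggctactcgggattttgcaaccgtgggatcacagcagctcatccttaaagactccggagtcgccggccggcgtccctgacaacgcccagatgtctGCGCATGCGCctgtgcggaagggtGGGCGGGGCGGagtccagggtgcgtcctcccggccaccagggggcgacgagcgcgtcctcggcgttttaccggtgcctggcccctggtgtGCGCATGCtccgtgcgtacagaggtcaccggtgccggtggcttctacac
Ndufa8: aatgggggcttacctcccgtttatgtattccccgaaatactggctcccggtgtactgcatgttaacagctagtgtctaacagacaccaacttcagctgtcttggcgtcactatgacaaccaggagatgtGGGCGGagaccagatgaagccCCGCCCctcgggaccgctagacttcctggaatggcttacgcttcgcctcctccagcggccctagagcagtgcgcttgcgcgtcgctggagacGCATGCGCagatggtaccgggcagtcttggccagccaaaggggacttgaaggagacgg

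Ndufb7 and Ndufb6 hold the GABP letters, and Ndufaf4 and Ndufa8 the NRF1 letters. These promoters are examples and do not stand for the other members. Whether a motif goes with the direction of a difference was not tested.

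The first comparison was that of KA with saline in EGFP- cells, 36 against 27. A gene was taken into it when at least 25% of all kept cells had a count, which 8899 genes, 85 nuclear members and all 13 mitochondrial members met. The 9 nuclear members left out were Ndufaf2 and the isoforms Cox4i2, Cox6a2, Cox6b2, Cox7a1, Cox7b2, Cox8b, Cox8c and Ndufa4l2. A difference is that of the mean log2(CPM+1) over cells, and "past 2-fold" means a difference of at least 1 on that scale. This measure can understate changes of genes with few counts. It also weighs cells without a count heavily, which can enlarge differences.

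After KA, the nuclear respiratory genes of EGFP- cells followed the table as a whole. Single genes such as Ndufb7, Ndufb6, mt-Nd1, mt-Co1 and mt-Nd4 were higher past 2-fold with all titles and in the second series. Ndufa7, Ndufa8 and Cox6c were lower past 2-fold in both. Of the 85 nuclear genes, 23 (27.1%) were higher past 2-fold and 3 (3.53%) lower, against 29.7% and 9.6% of all genes. Their median difference was 0.42 on the log2 scale, against 0.45 over all genes. In the second title series, which holds both treatments (15 KA and 27 saline cells), 4 nuclear genes (4.71%) were higher and 33 (38.8%) lower, against 9.46% and 33.5% of all genes, and the median was -0.66 against -0.49. The sign of the nuclear median therefore depended on the first series, in which there are no saline cells. Outside the second series the treatment cannot be told apart from the series. Within it the mitochondrial median was 0.08, against -0.49 over all genes. With only cells labelled as passed, the medians were 0.44 for nuclear and 0.77 for mitochondrial genes, against 0.59 over all genes. With cells whose neighbouring titles share their group (21 and 18), they were 0.21 and 0.38, against 0.43, and 1 mitochondrial gene was higher past 2-fold and 1 lower.

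The named genes higher past 2-fold with all titles and in the second series were complex I genes. Ndufb7 (an accessory subunit, chr8:83566671-83571626) had a median of 103.5 CPM in KA EGFP- cells (0 to 290) and 28.9 CPM in saline EGFP- cells (0 to 241.9). The ranges overlapped, and the gene was counted after thinning in 34 of 36 KA and 17 of 27 saline cells. Its difference was 2.53 (mean 6.41, SD 1.75, against 3.89, SD 3.37), and 1.81 in the second series. Ndufb6, another accessory subunit, differed by 2.20 (1.45 in the second series), Ndufab1 by 1.97 (1.21) and the assembly factor Ndufaf4 by 1.83 (1.26). Exons of Ndufb6 overlap those of Smim27 and exons of Ndufab1 those of Gm44986 on the opposite strand, and counting by strand is not stated, so such reads cannot be told apart.

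The assembly factor Ndufaf6 behaved otherwise. It was counted after thinning in 14 of 36 KA EGFP- cells and 2 of 27 saline EGFP- cells, with a difference of 2.01, but of 0.14 in the second series. Of its KA EGFP- cells with a count, 1 was among the 15 of the second series and 13 among the 21 of the first.

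The named nuclear genes that were lower were Ndufa7 and Ndufa8, accessory subunits of complex I, and Cox6c of complex IV. Cox6c had a median of 331 CPM in KA EGFP- cells (0 to 1701) and 462 CPM in saline EGFP- cells (49.9 to 1331). The ranges overlapped, and all saline cells but only 33 of 36 KA cells had a count after thinning. The difference was -1.18 (mean 7.62, SD 2.61, against 8.80, SD 0.96), and -2.40 in the second series. Ndufa7 differed by -1.39 (-2.04 in the second series) and Ndufa8 by -1.05 (-2.95). Exons of Cox6c overlap those of Vps13b over 250 bases.

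The differences of the nuclear genes listed as core subunits ranged from -0.39 to 1.82 with all titles. In the second series all were below 0 except those of Ndufs7, Ndufs8, Sdhb and Sdhc. For complex I, Ndufs8 differed by 1.82 (0.11 in the second series), Ndufs7 by 1.06 (0.34) and Ndufv2 by 0.98 (-0.64). For complex III, Uqcrfs1, the Rieske iron-sulfur protein, differed by 1.15 (-0.50), Cyc1, cytochrome c1, by 0.57 (-2.18) and Uqcrc2 by -0.24 (-2.83). Atp5b had a median of 1959.83 CPM in KA EGFP- cells (0 to 5123) and 1695 CPM in saline EGFP- cells (3.42 to 3898), with a difference of -0.39 (-2.29).

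**Figure D4:**
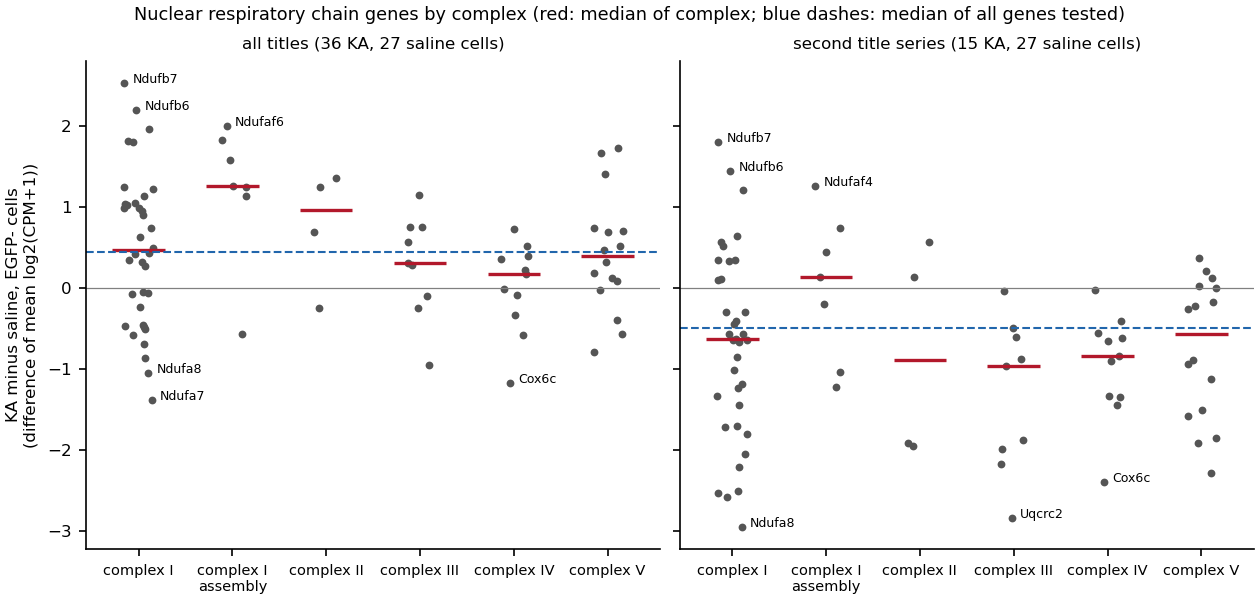
Difference of mean log2(CPM+1), KA minus saline EGFP- cells (y), for nuclear genes by complex (x), with all titles (left) and in the second title series (right); points are genes, red bars complex medians and the blue dashed line the median of all genes tested. Cox7a2l and Atp5s, which belong to no complex here, are left out. The medians of complexes I to V lie above 0 on the left and below 0 on the right. That of the complex I assembly factors lies above 0 in both panels, and Ndufb7 is the highest point in both.

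Of the 13 mitochondrial mRNAs, 4 (30.8%) were higher past 2-fold and 0 lower, against 29.7% and 9.6% of all genes, and in the second series 3 (23.1%) and 0, against 9.46% and 33.5%. A share of 30.8% is near that of all genes. In the second series a larger share was higher, and a smaller share lower, than among all genes. The 4 genes higher with all titles are among the 7 well-counted genes, and mt-Nd2 (0.41), mt-Nd5 (0.35) and mt-Cytb were not past 2-fold. The median difference was 0.69 (0.08 in the second series), and 1.01 (0.14) over the 7 genes. mt-Nd1 had a median of 939 CPM in KA EGFP- cells (0 to 4760.05) and 356 CPM in saline EGFP- cells (0 to 3509). The ranges overlapped, and 1 of 36 KA cells and 3 of 27 saline cells lacked a count after thinning. The difference was 1.69 (mean 9.37, SD 2.17, against 7.69, SD 3.47), and 1.08 in the second series.

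mt-Co1 had a median of 1277 CPM in KA EGFP- cells (49.6 to 5050.2) and 959 CPM in saline EGFP- cells (0 to 4700), a difference of 1.25 and of 1.24 in the second series. mt-Nd4 had a median of 356 CPM in KA EGFP- cells (17.996 to 1248) and 217.2 CPM in saline EGFP- cells (0 to 1034), a difference of 1.17 (1.26). The other gene past 2-fold, mt-Nd6, differed by 1.01 (0.14). For mt-Co1 and mt-Nd4 the lowest cells were saline cells, and the upper ends of the groups overlapped. mt-Cytb, the most abundant of them over all kept cells, differed by -0.18 (-0.54), with medians of 1263 CPM in KA EGFP- and 1220.2 CPM in saline EGFP- cells.

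Between the same cells, 12 of 14 microglia markers tested were lower past 2-fold after KA (2 of 14 in the second series), and the ribosomal RNA gene CT010467.1 took a median of 0.590% of counts in KA EGFP- and 1.70% in saline EGFP- cells. Of 12 granule cell markers, 6 were lower and 2 higher. Their part in the differences of the respiratory genes was not tested. Without the cells in which microglia markers reached 0.1% of counts (30 KA and 15 saline cells left), the median difference was 0.60 for nuclear and 0.84 for mitochondrial genes, against 0.61 over all genes.

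The other lists of mitochondrial genes given here differed between all titles and the second series in the direction in which the whole table did. Of the whole table, 29.7% was higher and 9.6% lower with all titles and 9.46% and 33.5% in the second series. Further lists, such as those of biogenesis genes and of carriers, were drawn up and are not given. Of 76 mitochondrial ribosomal protein genes tested, 28 (36.8%) were higher past 2-fold after KA and 3 (3.95%) lower, and in the second series 3 (3.95%) were higher and 18 (23.7%) lower. Of 16 genes of the TCA cycle and pyruvate dehydrogenase, 7 (43.8%) were higher and 1 (6.25%) lower, and in the second series 0 were higher and 5 (31.2%) lower. Of 18 complex IV assembly factors, 4 (22.2%) were higher and 3 (16.7%) lower, and in the second series 2 (11.1%) were higher and 7 (38.9%) lower. Cycs, which encodes cytochrome c, differed by 1.23 (-0.56).

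The next comparison was that of EGFP+ with EGFP- cells after KA, 27 against 36, cells with and without a labelled crossed axon. With all titles, 12 of the 13 mitochondrial mRNAs were above 0 in EGFP+ cells, mt-Nd3 being at -0.15, while the nuclear median was 0.34 against 0.28 over all genes. Of the 13, 6 (46.2%) were higher past 2-fold and 0 lower, against 17% and 4.16% of all genes, with a median difference of 0.96. Only 2 of those 6, mt-Nd2 and mt-Nd5, are well counted, and the others (mt-Atp6, mt-Atp8, mt-Co2 and mt-Co3) are among the uncertain low genes. The 7 well-counted genes were all above 0, with a median of 0.79. Of the 85 nuclear genes, 9 (10.6%) were higher and 2 (2.35%) lower. In the first title series (24 against 21 cells), the mitochondrial median was 0.89, with 4 genes higher and 0 lower, whereas 2 nuclear genes were higher and 15 lower, against 6.42% and 20.8% of all genes, and the nuclear median was -0.40 against -0.31 over all genes. With only cells labelled as passed, the medians were 0.36 for nuclear and 0.96 for mitochondrial genes, against 0.14 over all genes. With cells whose neighbouring titles share their group (19 and 21), they were 0.81 and 1.41, against 0.49. Among titles 20 to 48, the stretch of the first series where both classes occur (5 against 21 cells), the mitochondrial median was 0.44 over the 13 genes and 0.66 over the 7, against -0.28 over all genes.

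The complex I genes mt-Nd2 and mt-Nd5 had the largest differences of the 13 with all titles. mt-Nd2 had a median of 392 CPM in KA EGFP+ cells (4.22 to 2548) and 206.2 CPM in KA EGFP- cells (0 to 781). All 27 EGFP+ cells but 31 of 36 EGFP- cells had a count after thinning. The difference was 1.96 (mean 8.66, SD 1.79, against 6.70, SD 3.12), 1.31 in the first series and 1.13 among titles 20 to 48. mt-Nd5 had a median of 409 CPM in KA EGFP+ cells (0 to 4370.4) and 358 CPM in KA EGFP- cells (0 to 2265), and differed by 1.79 (1.75 and 1.58). The gene had a count after thinning in 26 of 27 EGFP+ and 27 of 36 EGFP- cells. In the second series the sign was reversed for mt-Nd5 (-1.36) but not for mt-Nd2 (0.77).

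In the second series, on 3 EGFP+ cells, the mitochondrial median was -0.03, and -2.13 over the 7 well-counted genes. KA EGFP+ replicates 26, 27 and 29 had 949, 2033 and 0.603 CPM of mt-Co1, and 707, 2880.4 and 0.603 CPM of mt-Cytb. Replicate 29 thus nearly lacked both genes, although its mt-Nd1 was at 1421 CPM, against 515 and 131 CPM in the other cells.

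**Figure D5:**
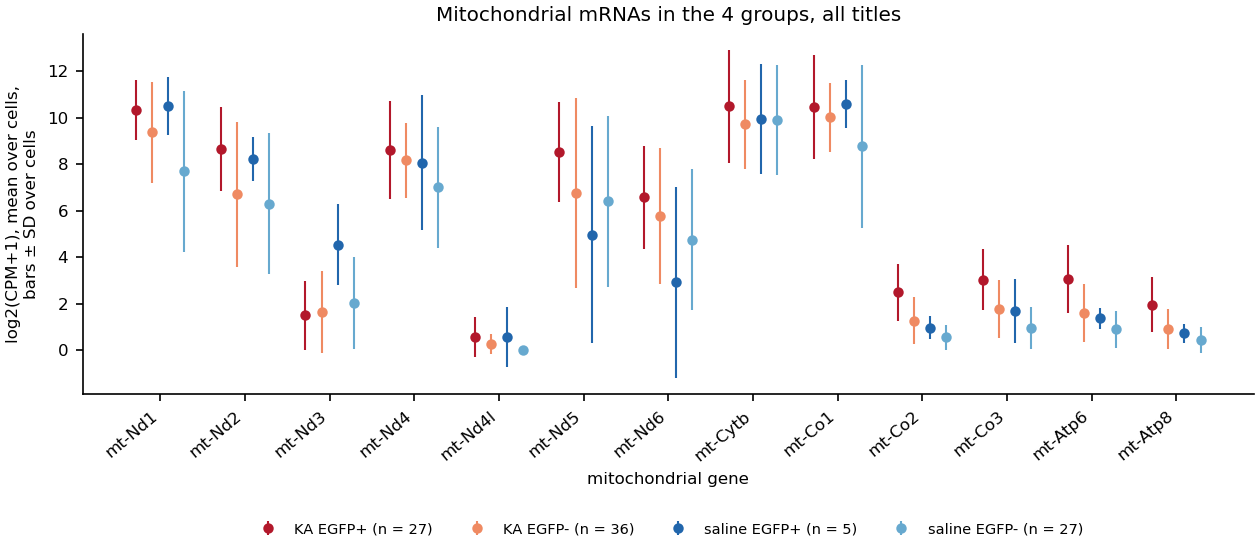
Mean log2(CPM+1) of the 13 mitochondrial mRNAs (x) in KA EGFP+, KA EGFP-, saline EGFP+ and saline EGFP- cells (y, points; bars are ± SD over cells). The KA EGFP+ mean is above the KA EGFP- mean for every gene but mt-Nd3, where the difference is -0.15.

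Of the nuclear genes, Atp5d, the delta subunit of the complex V stalk, was counted after thinning in all 27 KA EGFP+ cells and 32 of 36 KA EGFP- cells. It had a median of 679.7 CPM in EGFP+ cells (158 to 2679) and 543 CPM in EGFP- cells (0 to 3058), and differed by 1.41 (mean 9.44, SD 0.82, against 8.03, SD 3.13), but by 0.09 in the first series. Ndufb3, a complex I accessory subunit, differed by 1.5 (0.76 in the first series) and the core subunit Ndufs1 by 1.39 (0.37). Sdhb differed by -1.17 (-1.86 in the first series) and Ndufaf6 by -1.03 (-2.19). Microglia markers were higher past 2-fold in EGFP+ cells for 11 of 14 genes, and for 14 of 14 in the first series. Their part was not tested, and without cells rich in them (17 and 30 cells left) the median difference was 0.85 for mitochondrial and 0.27 for nuclear genes.

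The 5 saline EGFP+ cells were compared with 27 saline EGFP- cells, all of the second series. The mitochondrial mRNAs mt-Nd1, mt-Nd2, mt-Nd3, mt-Nd4 and mt-Co1 were higher and mt-Nd5 and mt-Nd6 lower, and the complex I genes Ndufs1, Ndufs3 and Ndufs4 were lower, in cells that all carried microglia markers. Of the 13 mitochondrial genes, 5 were higher past 2-fold and 2 lower (median 0.56, 1.07 over the 7 well-counted genes, and 0.63 over the 13 with the 3 EGFP+ cells labelled as passed), and of the 85 nuclear genes 6 (7.06%) were higher and 24 (28.2%) lower, against 11.5% and 39.4% of all genes. The nuclear median was -0.38, against -0.65 over all genes. It was 0.05 with edgeR scaling, 0.22 with DESeq2 scaling, 0.48 without saline EGFP+ replicate 6 and -1.2 with only cells labelled as passed, so no direction can be given for the nuclear genes. The median of all genes was -0.46 with edgeR and -0.36 with DESeq2 scaling, so the nuclear genes lay above it under each scaling. All 16 microglia markers had counts in these cells, and 14 of the 14 tested were higher past 2-fold. Ribosomal RNA took 4.43%, 2.5%, 1.57%, 13.4% and 5.83% of counts in the saline EGFP+ cells, replicate 6 being the highest, and a median of 1.70% in saline EGFP- cells (0.101 to 8.97%). The part of either was not tested.

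mt-Nd1 had 957, 496, 1053, 3576 and 3566 CPM in the saline EGFP+ cells (replicates 3 to 7), and a median of 356 CPM in saline EGFP- cells (0 to 3509). Replicates 6 and 7 lay above all EGFP- cells, and the others within their range. The difference was 2.81 (mean 10.50, SD 1.26, against 7.69, SD 3.47). mt-Nd3, among the uncertain low genes, had 5.58, 8.53, 20.1, 138 and 36.8 CPM in the EGFP+ cells and a median of 2.89 CPM in EGFP- cells (0 to 67.2), a difference of 2.51. mt-Nd6 had 70.7, 0, 363, 0 and 0 CPM in the EGFP+ cells against a median of 40.6 CPM in EGFP- cells (0 to 575), a difference of -1.82.

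Among the nuclear genes, Cox7a2l, which helps join complexes III and IV into a supercomplex, had 434, 707, 199.9, 96.4 and 1389 CPM in the saline EGFP+ cells and a median of 100.1 CPM in saline EGFP- cells (0 to 519). Replicates 4 and 7 lay above all EGFP- cells, of which 18 of 27 had a count after thinning. The difference was 3.77 (mean 8.59, SD 1.504, against 4.82, SD 3.58). Atp5j2, the f subunit of complex V, had 327, 330.3, 188, 575 and 358 CPM in the EGFP+ cells and a median of 109 CPM in EGFP- cells (0 to 419), a difference of 2.05. Ndufb9 differed by 2.25, Ndufa6 by 1.44 and Ndufaf8 by 1.42.

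On the other side, Ndufs4, a complex I subunit whose loss causes encephalopathy in mice, had 343, 0, 0, 0 and 0 CPM in the saline EGFP+ cells and a median of 109 CPM in saline EGFP- cells (0 to 622). A single EGFP+ cell, replicate 3, held all its counts. The difference was -3.75 (mean 1.69, SD 3.77, against 5.44, SD 3.54). Cox6b1 had 583, 0, 140.1, 0 and 5.48 CPM in EGFP+ cells and a median of 273 CPM in EGFP- cells (0.467 to 795), a difference of -3.70. Ndufs1 differed by -3.35, Ndufb3 and Ndufs3 each by -3.31. Exons of Ndufb9 overlap those of Gm49356, exons of Ndufs1 those of Ino80dos and Eef1b2, and exons of Ndufs3 those of Kbtbd4, so their reads may be shared. Replicate 3, which had the most counts of the 5, 6094406, also had the most nuclear members counted, 77 against 48 to 72.

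The comparison of KA with saline in EGFP+ cells, 27 against the same 5 cells, shares those saline cells with the comparison above. Of the 85 nuclear genes, 46 (54.1%) were higher past 2-fold and 3 (3.53%) lower, against 61.1% and 8.29% of all genes, and the median was 1.17 against 1.42 over all genes. Of the 13 mitochondrial genes, 6 were higher and 1 lower. Their median was 0.55, also over the 7 well-counted genes, but over the 13 genes -0.08 with edgeR and -0.15 with DESeq2 scaling, so no direction can be given. With only cells labelled as passed, the medians were 1.78 for nuclear and 1.33 for mitochondrial genes, against 1.76 over all genes. In the second series, on 3 KA cells, the medians were -0.15 for nuclear and -1.14 for mitochondrial genes (-2.11 over the 7), against 0.21 over all genes.

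The 4 complex II genes differed by 1.78 (Sdhb) to 3.87 (Sdhc), all higher past 2-fold, as were 61.1% of all genes. Sdhc had a median of 63.2 CPM in KA EGFP+ cells (0 to 586) and 107, 0, 0, 0 and 0 CPM in the saline EGFP+ cells. In the second series Sdhd differed by -2.74 and Sdhc by 2.87. The genes with the largest differences were Ndufb3 (5.25), Ndufs1 (5.15), Ndufs3 (4.64) and Ndufs4 (3.92) on the higher side and Cox7a2l (-3.09), Atp5j2 (-2.29) and Ndufb10 (-1.06) on the lower side. In the second series these were 5.45, 7.68, 1.45 and 2.97, and -3.35, -3.95 and -4.67, of the same sign because the choice of genes asked for it. All 14 microglia markers tested were lower past 2-fold in KA EGFP+ cells, and ribosomal RNA took a median of 0.601% of counts in them, against 1.57 to 13.4% in the saline EGFP+ cells. The part of either was not tested.

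Within KA EGFP- cells, the 15 cells of the second title series were set against the 21 of the first. Nearly every nuclear respiratory gene was lower in the second series, as most genes were. Of 85 nuclear genes, 75 (88.2%) were lower past 2-fold and 0 higher, against 70.1% and 1.9% of all genes, and the median was -1.83 against -1.65. Of 13 mitochondrial genes, 7 were lower and 1 higher (mt-Nd3, 1.14), with a median of -1.04, also over the 7 well-counted genes. mt-Co1 differed by -0.01 and mt-Nd4 by 0.15.

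The core subunits Cyc1 (-4.71), Sdhd (-4.47) and Uqcrc2 (-4.44), the complex V stalk gene Atp5f1 (-4.08) and Ndufa9 (-3.98) had the largest differences. Exons of Uqcrc2 overlap those of Pdzd9 over 504 bases, and exons of Atp5f1 those of Wdr77 and Gm42890. Cyc1 (chr15:76343523-76346260) had a median of 0.329 CPM in the second series (0 to 793) and 510.4 CPM in the first (100.04 to 903). After thinning, 7 of 15 cells of the second series and all 21 of the first had a count. In the second series 8 of 15 cells had at most 0.329 CPM, and the highest lay within the range of the first series. The summed nuclear level had a median of 14151 CPM in the second series (3634 to 48693) and 22549 CPM in the first (13265 to 33155).

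The number of members counted differed along with the number of genes. A median of 56 nuclear members was counted after thinning in cells of the second series (31 to 77), and 78 in those of the first (66 to 86), with 3302 and 6371 genes of all kinds after thinning. Among cells with at least 4000 genes (4 and 20 cells), the median nuclear difference was -0.0018, against -1.15 over all genes, and with the counts of each series pooled it was -0.17 against -0.05. With only cells labelled as passed (11 and 19), it was -2.3 against -1.77, and with cells whose neighbouring titles share their group (10 and 11) -2.38 against -1.7, where the mitochondrial median was -0.76. Microglia markers were higher past 2-fold in the second series for 12 of 14 genes tested, and their part was not tested.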

How the data were processed

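The deposited count tables hold whole-number read counts per gene symbol for each cell, before and after the authors' quality control, and shared cells had 0 differing values between them. Reads were processed with featureCounts, kallisto, STAR and Trimmomatic and build GRCm38, per the submitters' processing notes, with versions, roles and strand setting not given in the sources used here. Another deposited table holds the authors' normalized signal, used only as an alternative. Libraries were made with Nextera XT per the labels' protocols, and no molecular identifiers are mentioned. The intervals and floors cover the sampling of cells only, taken as independent.

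Counts were divided by each cell's total without the 92 spike-in rows (CPM). Depth was 1277978 to 56183007 counts. Genes with a count in at least 25% of the 95 kept cells were tested for a difference of mean log2(CPM+1), taken as called past 1 on the log2 scale. The calculation was checked on simulated Poisson counts drawn from the mean profile of the saline EGFP- cells. These lack the spread between cells, so the check covers the arithmetic only. No p-value was computed, since cells are not replicates. Thinning was to 1000000 counts.

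Genes were named by a rule: all mitochondrial members, the 5 highest and 5 lowest nuclear differences of each comparison if past 1 and of the same sign in each title series with at least 3 cells of both groups, core subunits, isoform groups, and the extremes of level per kilobase. Members, lists and the rule were chosen with earlier results of these data known. Exon lengths, overlaps and shared 50-base stretches came from GENCODE M21 on GRCm38, in which 22566 of 22870 symbols were found, and promoters from RefSeq. An exon length joins all annotated exons of a gene. Alternatives changed the scaling, pseudocount, filter, averaging, depth, cells and title series. edgeR 4.0.16 and DESeq2 1.42.0 (R 4.3.3) gave scaling factors only. Python 3.11.15, pandas 2.3.3, NumPy 2.4.6, SciPy 1.17.1 and matplotlib 3.10.9 were used.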

Additional observations from a re-analysis of the deposited data

Results flagged for a closer look

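In the 5 saline EGFP+ cells, 18 of 65 values checked had 1 cell standing apart from the other cells by a large part of the group's range, which chance alone gives for about 1 in 20 independent values. These are not independent, since 10 of the 11 lowest values belong to replicate 6, in which ribosomal RNA took 13.4% of counts, and 5 of the 7 highest to replicate 3. Values are log2(CPM+1). The cell standing apart was the lowest for mt-Nd4 (2.912), Atp5b (4.363), Cox6c (5.008), Cox5a (1.667) and Cox6a1 (1.667). It was the lowest, at 0, for Cox4i1, Cox5b, Cox8a, Ndufab1, Ndufa7 and Ndufa6. It was the highest for mt-Nd4l (2.86), Ndufs3 (7.366), Sdhc (6.757), Atp5g2 (3.564), Ndufaf6 (2.344), Ndufb3 (7.509) and Ndufs4 (8.427).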

How the results depend on the processing

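The nuclear median was above 0 in 17 of 18 alternatives for KA against saline EGFP- cells, the exception being -0.66 in the second title series, in 16 of 20 for KA EGFP+ against EGFP- cells, in 5 of 20 for saline EGFP+ against EGFP- cells, in 20 of 21 for KA against saline EGFP+ cells and in 0 of 17 for the title series. The mitochondrial median was above 0 in 19 of 19, 20 of 21, 21 of 21, 19 of 22 and 0 of 18 for the same comparisons. Since the whole table shifts, a median above 0 need not lie above that of all genes. The nuclear median lay above that of all genes in 7 of 18, 16 of 20, 17 of 20, 5 of 21 and 4 of 17 alternatives. For the mitochondrial median these were 17 of 19, 20 of 21, 21 of 21, 1 of 22 and 16 of 18. The nuclear median of KA EGFP+ against saline EGFP+ cells was -0.15 in the second title series, against 1.17 with all titles, and the mitochondrial one was -1.14 against 0.55. For second against first title series in KA EGFP- cells, the nuclear median of -1.83 became -2.61 with a pseudocount of 0.1, -1.03 with 10, -0.17 with pooled counts, -0.90 with medians over cells and -0.0018 in cells with at least 4000 genes; the cause was not tested. Leaving out each saline EGFP+ cell in turn gave nuclear medians of -0.91 to 0.48 and mitochondrial medians of 0.26 to 0.97 against saline EGFP- cells, and of 0.61 to 1.68 and 0.16 to 1.18 for KA EGFP+ against saline EGFP+ cells. Counts of nuclear genes past 2-fold moved most: 23 higher and 3 lower for KA against saline EGFP- cells became 4 to 50 and 0 to 33 over the alternatives, and 9 and 2 for KA EGFP+ against EGFP- cells became 2 to 29 and 0 to 24. For saline EGFP+ against EGFP- cells 6 and 24 became 3 to 29 and 10 to 48, for KA against saline EGFP+ cells 46 and 3 became 16 to 57 and 2 to 32, and for the title series 0 and 75 became 0 to 12 and 11 to 81. The 13 mitochondrial genes gave, higher and lower, 4 and 0 for KA against saline EGFP- cells (1 to 8 and 0 to 1), 6 and 0 for KA EGFP+ against EGFP- cells (1 to 11 and 0 to 5), 5 and 2 for saline EGFP+ against EGFP- cells (1 to 10 and 0 to 2), 6 and 1 for KA against saline EGFP+ cells (0 to 8 and 0 to 7) and 1 and 7 for the title series (0 to 2 and 1 to 9). An alternative chosen after seeing the data, the 8 mitochondrial genes with under 90% of their stretches shared, gave medians of 0.75, 0.88, 0.68, 0.55 and -0.996 for these comparisons in that order. No value could be had for the saline EGFP+ comparisons without cells rich in microglia markers or with cells whose neighbouring titles share their group, since 0 saline EGFP+ cells were left. No paired analysis was possible because replicate numbers only name cells and no label ties a cell to its mouse. Cells are few, their mice unknown, and low genes rest on presence or absence of counts.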
